A study of Mus musculus and Homo sapiens with 41 samples.

Results

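Histone acetylation is set by enzymes that add acetyl groups to lysines (acetyltransferases), by enzymes that remove them (zinc-dependent deacetylases and NAD-dependent sirtuins), by the scaffold and remodelling subunits that hold deacetylases in corepressor complexes, and by proteins whose bromodomain binds acetylated lysine. The transcript levels of 46 genes of this machinery were followed here after gain and after loss of PLZF, a zinc-finger transcription factor encoded by Zbtb16. The members were taken by symbol from a given list, and all 46 were found among the 53756 genes listed for granulocyte-monocyte progenitors (GMPs) and 45 among the 13238 genes listed for the 416b cell line. They were grouped by role into 9 acetyltransferases, 11 deacetylases, 6 sirtuins, 10 corepressor subunits, 4 bromodomain readers and 6 genes called complex adaptors here. PLZF is known to recruit NCoR, SIN3A and class I deacetylases to its target genes, and acetylation of H3K27 marks active enhancers, so the comparison asks whether the genes that write, erase and read the mark were themselves changed in expression when PLZF was added or removed.

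Loss of PLZF was measured in GMPs sorted from bone marrow of C57BL/6 background, either wild type (WT) or homozygous for the luxoid allele of Zbtb16 (Zbtb16lu/lu). The sort kept cells without lineage markers or Sca-1 that carried Cd45, c-Kit, Cd34 and the Fcgamma receptor, after depletion of cells with Cd11b, Gr-1 or other lineage markers. Per the methods of the study, the marrow of both genotypes had first been transplanted into lethally irradiated C57BL/6 hosts that carried the Cd45-1 allele, the donors being Cd45-2. The values describe GMPs after regeneration. The study gates GMPs on Cd45 and refers to its antibody list for their staining, where the only Cd45 antibody is to the donor form. A gate on that form would leave out host cells. Gain of PLZF was measured in 416b, a Cd34+ mouse myeloid progenitor line, transduced with lentivirus coding for PLZF-Flag with GFP or with an Empty vector with GFP and sorted for GFP; it is a single line grown in suspension. GMPs gave 2 libraries per genotype from ribosome-depleted total RNA, and 416b cells gave 1 library per condition from low-input cDNA. The remaining ChIP-seq and ATAC-seq samples of the series were not analysed here.

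The GMP libraries held between 37562999 and 40170636 reads on listed genes, and the 416b libraries held 54529788 (Empty vector) and 19995794 (PLZF-Flag). Zbtb16 itself had 705 and 828 normalized counts in replicates 1 and 2 of WT, and replicates 1 and 2 of Zbtb16lu/lu had 369 and 269, a log2 fold change of -1.28 ± 0.20 (SE; adjusted p = 0.299 by limma). The 416b cells with Empty vector had 382 normalized counts of it and those with PLZF-Flag 2541, which differ by 2.73 on the log2 scale and to which reads from the vector's own coding sequence can contribute. All 10 GMP and myeloid progenitor markers were measured in GMPs, and their summed level ran from 740952 to 750381 in WT and from 851783 to 860717 in Zbtb16lu/lu. Mpo alone had 477326 and 483375 in WT replicates 1 and 2 and 552003 and 543288 in those of Zbtb16lu/lu. Of the 10, 2 were higher at an unadjusted p under 0.05 by limma and 0 lower, beside 5.5% and 4.37% of all genes. The summed level of 11 mature neutrophil markers ran from 3599 to 3671 in WT and from 4994 to 7760 in Zbtb16lu/lu, and 8 of the 11 had an unadjusted p under 0.05 and were higher (limma; 5.5% of all genes were). Of the 11, Mmp9 alone was at 0 in a library, WT replicate 2. Of 7 monocyte and macrophage markers tested, 4 were higher at that level. Of the tested genes of the erythroid (8), megakaryocyte (6), stem cell (5), B cell (1) and T cell (2) lists, 1 T cell gene was higher at that level and 0 were lower. The WT libraries lay far apart in 2 of these lists. The summed megakaryocyte markers were 2248 and 5965 in WT replicates 1 and 2 and 1740 and 3313 in those of Zbtb16lu/lu, with WT replicate 2 highest. The summed erythroid markers were 210 and 1317 in WT replicates 1 and 2 and 582 and 873 in those of Zbtb16lu/lu, with WT replicate 1 lowest. In 416b cells 9 of the 10 myeloid progenitor markers were listed, all but Elane. Of the 8 that averaged 10 or more normalized counts, 0 were past 1.2-fold higher in PLZF-Flag, beside 6.13% of all genes. Past 1.2-fold lower were 2, beside 9.22%. Cd34 had 11059 and 8823 normalized counts in Empty vector and PLZF-Flag, and Kit 6434 and 7267. Mpo, under that average, had 12.1 and 3.30. The part of these cell type markers in the member values was not tested. In bulk RNA, fewer cells of a type and less RNA per cell cannot be told apart. A single library of each genotype carries the same date in the headers, and replicate 1 of each genotype names that pair below.

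The machinery was expressed over a wide range in both cell types. Levels between genes are given per kilobase of exon, as normalized counts divided by the summed exon length of the gene. In WT GMPs the members ran from 4.66 (Chd5) to 3243 (Chd4), with a median of 295.4, and the median member stood at the 60.7th percentile of all tested genes with a known length. In Empty vector 416b cells they ran from 3.35 (Chd5) to 3454 (Mta1), with a median of 356.6 at the 58.7th percentile. The corepressor subunits were the most abundant role by its median in both, at 826.8 in GMPs and 708.7 in 416b cells, and the deacetylases were the least abundant, at 192.4 and 239.4.

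**Figure D1:**
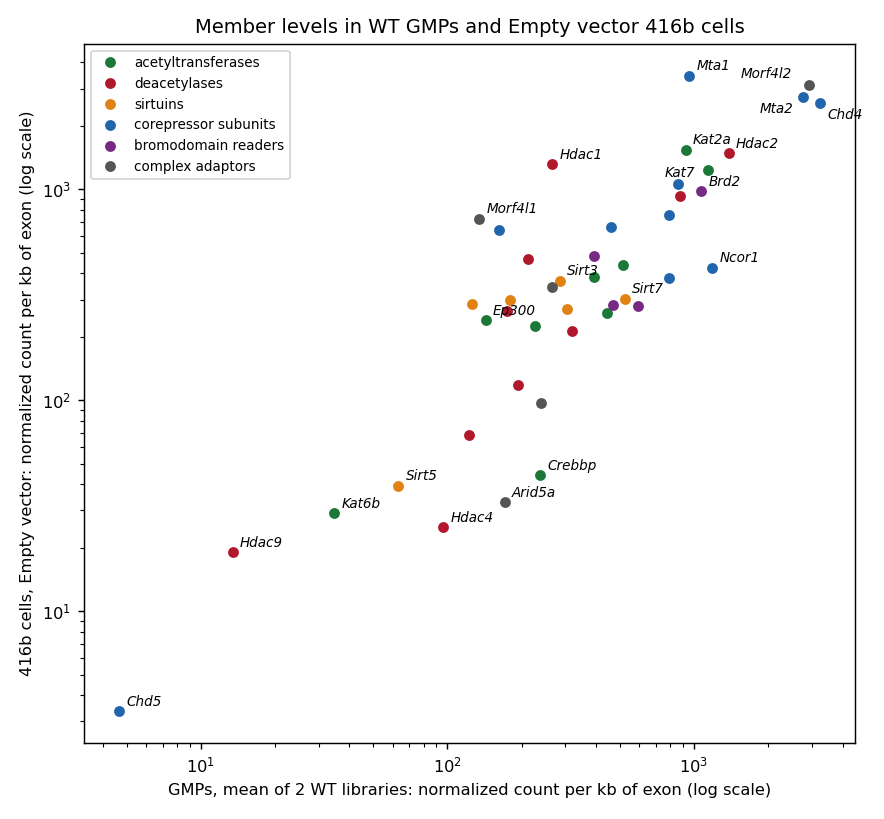
Normalized counts per kilobase of exon for 44 members, in GMPs (x axis, mean of 2 WT libraries) and in 416b cells (y axis, Empty vector, 1 library), both on log scales, coloured by role. The members spread from Chd5, at 4.66 and 3.35, to Chd4 (3243 and 2575), Mta2 (2758 and 2751) and Morf4l2 (2935 and 3132), and Crebbp, Hdac1 and Morf4l1 lie far from the diagonal.

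Relatives within a family stood at ratios that ranged from near equality to many-fold, and the leading relative was not always the same in the 2 cell types. Of the paired acetyltransferases KAT2A (GCN5) and KAT2B (PCAF), which sit in the SAGA and ATAC complexes, Kat2a led Kat2b per kilobase by 3.88 to 4.27 times in the WT libraries and by 6.83 times in Empty vector. Crebbp led Ep300, its close relative and the other main writer of H3K27ac, by 1.64 and 1.68 times in WT GMPs, while in Empty vector 416b cells Crebbp stood at only 0.185 of Ep300. Hdac2 led Hdac1, the class I deacetylases that share corepressor complexes, by 4.75 and 5.63 times in WT GMPs and by 1.12 times in Empty vector. Mta2 led Mta1, both NuRD subunits, by 2.70 and 3.07 times in WT GMPs, and Mta1 led in Empty vector, where Mta2 stood at 0.796 of it. Among sirtuins, Sirt7, a nuclear and nucleolar deacylase, had 523.7 per kilobase in WT GMPs and led there, and in Empty vector Sirt3, the main mitochondrial deacetylase, led with 368.1. The 2 experiments used different kits and read types and share no library, so these orders are set side by side and the difference between cell types was not tested.

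In GMPs, no member passed the limma test between genotypes. All 46 members were tested with limma on log2(normalized count + 1) across 20531 genes, and 0 had an adjusted p under the study's threshold of 0.08, the same as the 0% of all genes called; the lowest adjusted p of a member was 0.343, and that of any gene 0.299. At an unadjusted p under 0.05, 3 members were higher in Zbtb16lu/lu (Arid5a, Hdac5 and Chd5), beside 5.5% of all genes, and 1 was lower (Morf4l2), beside 4.37%, which are shares of 6.52% and 2.17% of the members. edgeR on the recovered reads called 0 members (0% of genes). It had 5 members at an unadjusted p under 0.05, beside 2033 of 20531 genes. DESeq2 on the same reads called 1 member, Arid5a, among the 161 genes (1.24%) it called higher. No member was among the 59 genes (0.455%) it called lower. With 2 libraries against 2, the smallest two-sided p of an exact permutation test is 0.333. The p-values measure the spread between these libraries. The study reports genes both down- and upregulated in this comparison, so its threshold was applied here to a limma fit that called none. In this limma fit Zbtb16 itself had an adjusted p of 0.299.

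A miss of the threshold did not come with wide intervals for most members. The 95% confidence interval of the log2 fold change excluded a 2-fold change in either direction for 44 of 46 members and a 1.5-fold change for 38, and the median interval reached 0.29 to each side of its estimate. The estimates ran from -0.28 (Hdac2) to 0.88 (Chd5), 22 of 46 lay within 0.1 of 0, and their median was 0.03 beside -0.01 over all tested genes. The WT libraries lay farther from each other than the Zbtb16lu/lu libraries in 31 of 46 members, with median gaps of 0.15 and 0.08 on the log2 scale, and over all genes the gaps were 0.28 and 0.15.

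**Figure D2:**
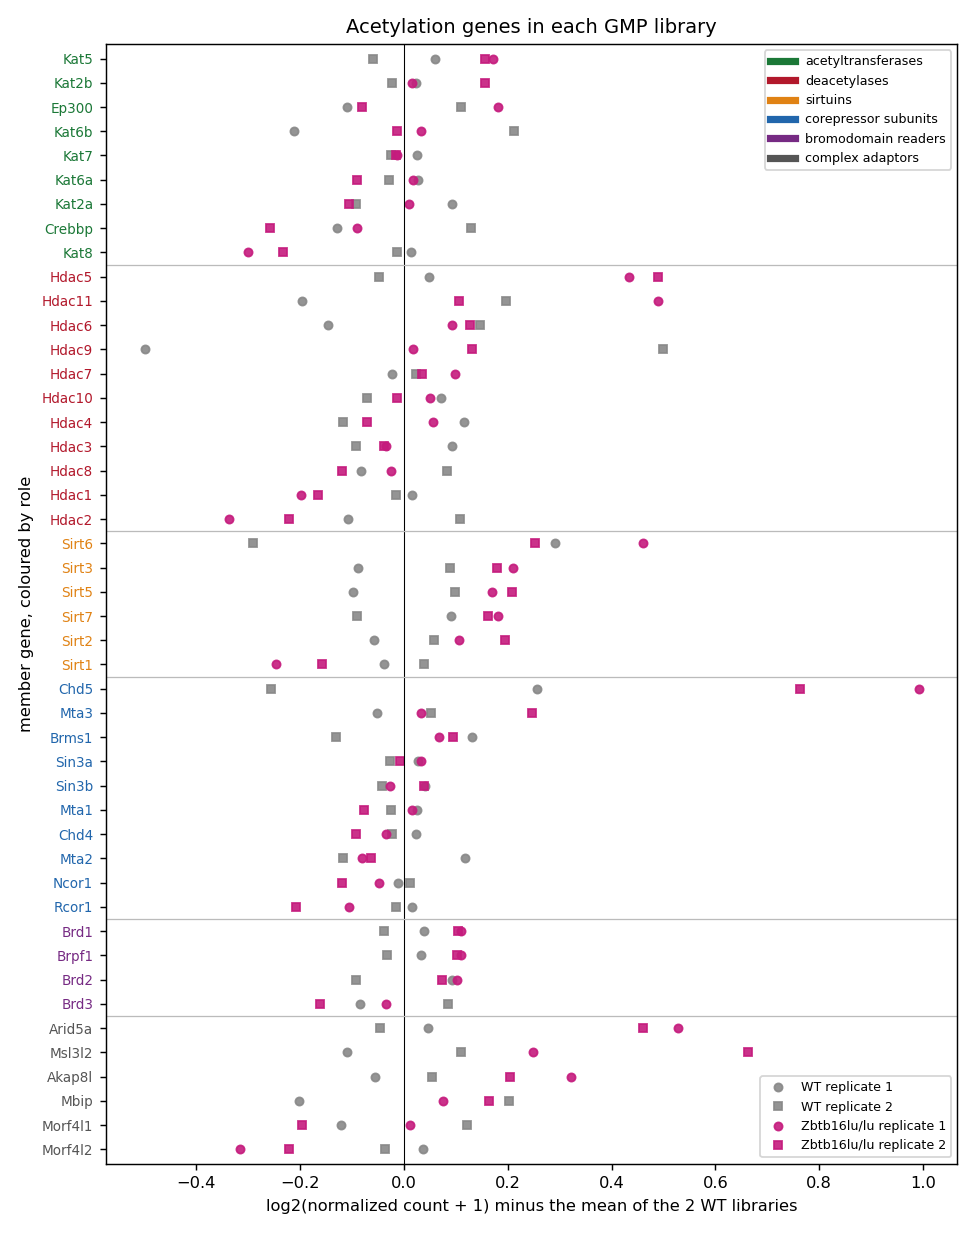
Each of the 46 members in each of the 4 GMP libraries, as log2(normalized count + 1) minus the mean of the 2 WT libraries (x axis), ordered by role and by fold change. Grey symbols are WT and magenta symbols Zbtb16lu/lu, circles are replicate 1 and squares replicate 2. Most magenta symbols lie within 0.3 of 0, with those of Chd5, Arid5a, Hdac5 and Msl3l2 reaching farthest to the right, and the WT symbols of Hdac9, Sirt6 and Chd5 lie farthest apart.

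Both Zbtb16lu/lu libraries stood above both WT libraries in 13 members, beside 21.7% of all genes, and below both in 8 members, beside 22.1%; the shares of the members were 28.3% and 17.4%. In the other 25 members the genotypes overlapped. The sign of the difference was the same in the pair of libraries of the same date as in the other pair for 28 of 46 members (60.9%), beside 57.5% of all genes. The pairs had opposite signs in, among others, Ep300 (0.29 within the same date and -0.19 in the other pair), Crebbp (0.04 and -0.39) and Mta2 (-0.20 and 0.05).

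Arid5a had the lowest p of the members. It encodes an AT-rich interaction domain protein best known for binding and stabilizing cytokine messenger RNAs, and the study treats ARID5 proteins as partners of the acetylation machinery. It lies on chromosome 1 (36307733 to 36324029, plus strand; GRCm38/mm10). Its normalized counts were 2211 and 2074 in WT replicates 1 and 2 and 3086 and 2945 in Zbtb16lu/lu replicates 1 and 2. Both Zbtb16lu/lu libraries were higher and the genotypes did not overlap. The log2 fold change was 0.49 ± 0.12 (SE; 95% interval 0.23 to 0.76; unadjusted p = 0.00258, adjusted p = 0.343 by limma), and it was 0.48 within the same date, 0.51 in the other pair and 0.39 with a correction for GC content and gene length. By DESeq2 it was the only member past the threshold (adjusted p = 0.0441), while edgeR gave an adjusted p of 0.375. The study also reports Arid5a expression as affected by PLZF inactivation, from RNA-seq of the same comparison, so this is not an independent result.

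Hdac5 followed closely. HDAC5 is a class IIa deacetylase, a family that shuttles between nucleus and cytoplasm, binds MEF2 factors and works with NCoR and HDAC3. The gene lies on chromosome 11 (102194432 to 102230166, minus strand). It had 1931 and 1805 normalized counts in WT and 2522 and 2622 in Zbtb16lu/lu, again with no overlap. The log2 fold change was 0.46 ± 0.12 (SE; 95% interval 0.19 to 0.73; unadjusted p = 0.0042, adjusted p = 0.378 by limma), 0.38 within the same date and 0.54 in the other pair. It was 0.20 with the correction for GC content and gene length, where the unadjusted p was no longer under 0.05. The adjusted p was 0.389 by edgeR and 0.0861 by DESeq2. Per kilobase, Hdac5 stood at 2.12 and 2.33 times Hdac4 in the WT libraries and at 2.88 and 3.27 times in the Zbtb16lu/lu libraries.

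The promoters of these genes are shown because they are the 2 members with the lowest p in GMPs. Each sequence holds 250 bases before and 50 after the start site in RefSeq, build GRCm38.p6, where 40 of the 46 members had an entry. Capitals mark matches, on either strand, to 5 motifs that were searched: the GC box GGGCGG, the CCAAT box, the TATA box with the letters TATAAA, the E-box with the letters CACGTG and the ETS core with the letters CGGAAG. The Arid5a promoter (chr1:36307483-36307782, plus strand) and the Hdac5 promoter (chr11:102230123-102230422, minus strand) read, 5′ to 3′,
Arid5a: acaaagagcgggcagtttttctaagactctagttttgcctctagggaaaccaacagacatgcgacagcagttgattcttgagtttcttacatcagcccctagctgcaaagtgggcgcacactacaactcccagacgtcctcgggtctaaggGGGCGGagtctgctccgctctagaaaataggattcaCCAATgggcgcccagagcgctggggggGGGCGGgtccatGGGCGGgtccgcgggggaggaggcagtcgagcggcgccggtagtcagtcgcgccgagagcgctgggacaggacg
Hdac5: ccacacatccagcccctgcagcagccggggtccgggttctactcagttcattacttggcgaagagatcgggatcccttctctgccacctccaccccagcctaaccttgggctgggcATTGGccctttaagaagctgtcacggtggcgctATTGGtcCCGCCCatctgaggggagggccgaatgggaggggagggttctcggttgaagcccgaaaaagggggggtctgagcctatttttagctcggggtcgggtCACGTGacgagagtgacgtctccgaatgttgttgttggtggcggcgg
Both are rich in G and C (60.3% and 60.7%). Arid5a holds 3 GC boxes and 1 CCAAT box, and Hdac5 holds 1 GC box and 2 CCAAT boxes, all of them on the opposite strand, with an E-box just after the start site. The TATA box and the ETS core were in neither window. Of 32851 promoter entries of the same length, 35.7% hold the GC box, 37.4% the CCAAT box, 7.15% the E-box, 13.6% the TATA box and 16.9% the ETS core. The matches are descriptions of the sequence.

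The corepressor subunit Chd5 had the largest fold change at the lowest level. CHD5 is an ATP-dependent remodeller of the NuRD family, known chiefly from neural tissue and testis. It had 52.7 and 36.6 normalized counts in WT and 88.4 and 75.3 in Zbtb16lu/lu, with no overlap. The log2 fold change was 0.88 ± 0.36 (SE; 95% interval 0.06 to 1.69; unadjusted p = 0.0373, adjusted p = 0.489 by limma). At this depth the WT libraries alone differed by 0.51 on the log2 scale, and the unadjusted p was not under 0.05 with DESeq2 (0.0837), with quantile normalization or with the correction for GC content and gene length. Its relative Chd4, the main NuRD ATPase, had 26412 and 25598 in WT against 25390 and 24376 in Zbtb16lu/lu, just without overlap, and stood 343 to 835 times above Chd5 per kilobase in the 4 libraries. Of the 10 corepressor subunits, 1 lay above and 3 below (Ncor1, Rcor1 and Chd4) without overlap, beside 21.7% and 22.1% of all genes. The median fold change was -0.01, and it was -0.11 with the correction for GC content and gene length, 0.04 without WT replicate 1 and -0.05 without WT replicate 2. Sin3a, the scaffold of the SIN3 complex, had 4334 and 4177 normalized counts in WT and 4354 and 4231 in Zbtb16lu/lu, and Ncor1, the scaffold of the NCoR-HDAC3 complex, had 15070 and 15322 in WT against 14689 and 13991 in Zbtb16lu/lu.

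Among the deacetylases, the class I gene Hdac2 was the most abundant in GMPs and lower in both Zbtb16lu/lu libraries. It had 5726 and 6647 normalized counts in WT and 4882 and 5293 in Zbtb16lu/lu, a log2 fold change of -0.28 ± 0.12 (SE; unadjusted p = 0.0501, adjusted p = 0.506 by limma). It was -0.12 with the correction for GC content and gene length and -0.17 without WT replicate 2. Hdac1 had 928 and 909 in WT against 800 and 819 in Zbtb16lu/lu, also without overlap, and Hdac3, the NCoR partner, had 3799 and 3342 in WT against 3478 and 3468 in Zbtb16lu/lu, with overlap. Over the 11 deacetylases, 6 fold changes were above 0 and 5 below, with a median of 0.02 (-0.01 to 0.06 over the alternatives that moved it), and only Hdac5 had an unadjusted p under 0.05. Hdac9 and Hdac11 were the least abundant, at 13.5 and 15.9 per kilobase in WT. The WT libraries held 131 and 263 normalized counts of Hdac9, on the log2 scale the widest WT gap of any member.

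Of the 6 sirtuins, 5 had a fold change above 0 in Zbtb16lu/lu and Sirt1 was below 0. Sirt2, Sirt3, Sirt5 and Sirt7 stood above both WT libraries without overlap (21.7% of all genes did), Sirt1 below both (22.1% did), Sirt6 overlapped, and the median log2 fold change of the 6 was 0.18 beside -0.01 over all genes; it was 0.10 with the correction for GC content and gene length and 0.10 without WT replicate 1. None of the 6 had an unadjusted p under 0.05, while with that correction Sirt3 had a fold change of 0.27 (unadjusted p = 0.0427, adjusted p = 0.609 by limma). Sirt7 had 2865 and 2527 normalized counts in WT and 3049 and 3012 in Zbtb16lu/lu. Sirt1, the nuclear sirtuin that deacetylates histones and p53, had 1585 and 1670 in WT against 1371 and 1459 in Zbtb16lu/lu, lower without overlap, a log2 fold change of -0.20 ± 0.13 (SE; unadjusted p = 0.146, adjusted p = 0.601 by limma), which was -0.08 with the correction for GC content and gene length. Sirt1 stood at 1.68 and 1.73 times Sirt2 per kilobase in WT and at 1.33 times in both Zbtb16lu/lu libraries.

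The 9 acetyltransferases had fold changes from -0.27 to 0.16 in GMPs, and none had an unadjusted p under 0.05. Kat8 (MOF), the H4K16 acetyltransferase of the MSL and NSL complexes, had 1292 and 1267 normalized counts in WT and 1038 and 1089 in Zbtb16lu/lu, lower without overlap, with a log2 fold change of -0.27 ± 0.13 (SE; unadjusted p = 0.0727, adjusted p = 0.534 by limma); with the correction for GC content and gene length these were -0.31, 0.0286 and 0.597. Kat7 (HBO1), the most abundant per kilobase in WT GMPs, had 6429 and 6210 in WT against 6263 and 6254 in Zbtb16lu/lu. Ep300 had 1885 and 2193 in WT against 2306 and 1924 in Zbtb16lu/lu, and Crebbp had 2929 and 3501 in WT against 3008 and 2678 in Zbtb16lu/lu, so for both H3K27 acetyltransferases the libraries of the genotypes overlapped. Of the 9, 1 lay above without overlap (Kat5, TIP60) and 1 below (Kat8), beside 21.7% and 22.1% of all genes. The median fold change of the 9 was -0.01, or 0.02 with the correction for GC content and gene length and -0.08 without Zbtb16lu/lu replicate 1. Of the 4 bromodomain readers, Brd1 and Brpf1, scaffolds of the HBO1 and MOZ acetyltransferase complexes, lay above without overlap (21.7% of all genes did). The log2 fold changes of Brd1 and Brpf1 were 0.11 each. Brd2, the most abundant reader, had 8902 and 7830 in WT against 8963 and 8782 in Zbtb16lu/lu, with overlap. The 4 fold changes ran from -0.10 to 0.11, with a median of 0.10 that was -0.06 with the correction for GC content and gene length, 0.14 without WT replicate 1 and 0.03 without WT replicate 2.

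The complex adaptors beside Arid5a held the single member with a lower value at an unadjusted p under 0.05. Morf4l2 (MRGX), a chromodomain-family relative found in NuA4 and SIN3 complexes, had 9438 and 8966 normalized counts in WT and 7393 and 7891 in Zbtb16lu/lu, without overlap. Its log2 fold change was -0.27 ± 0.11 (SE; unadjusted p = 0.0389, adjusted p = 0.490 by limma), and the unadjusted p was not under 0.05 with quantile normalization, with no intensity trend or with the correction for GC content and gene length. Its relative Morf4l1 (MRG15) had 1203 and 1425 in WT against 1321 and 1142 in Zbtb16lu/lu, with overlap. Akap8l, a nuclear anchor protein, had 1166 and 1259 in WT against 1515 and 1396 in Zbtb16lu/lu (log2 fold change 0.26 ± 0.13 SE; adjusted p = 0.542 by limma), and Msl3l2, a relative of the MSL subunit MSL3, had 223 and 259 in WT against 286 and 381 in Zbtb16lu/lu (0.46 ± 0.22 SE; adjusted p = 0.531 by limma), both higher without overlap. With the correction for GC content and gene length the fold change of Akap8l was 0.03. Without Zbtb16lu/lu replicate 2 that of Msl3l2 was 0.25. Morf4l1, Morf4l2, Hdac1 and Msl3l2 have close relatives or copies elsewhere in the genome, and reads shared between them could be lost or split. The GMP column headers name files of unique alignments, and for 416b cells the handling of shared reads is not given in the sources used here.

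**Figure D3:**
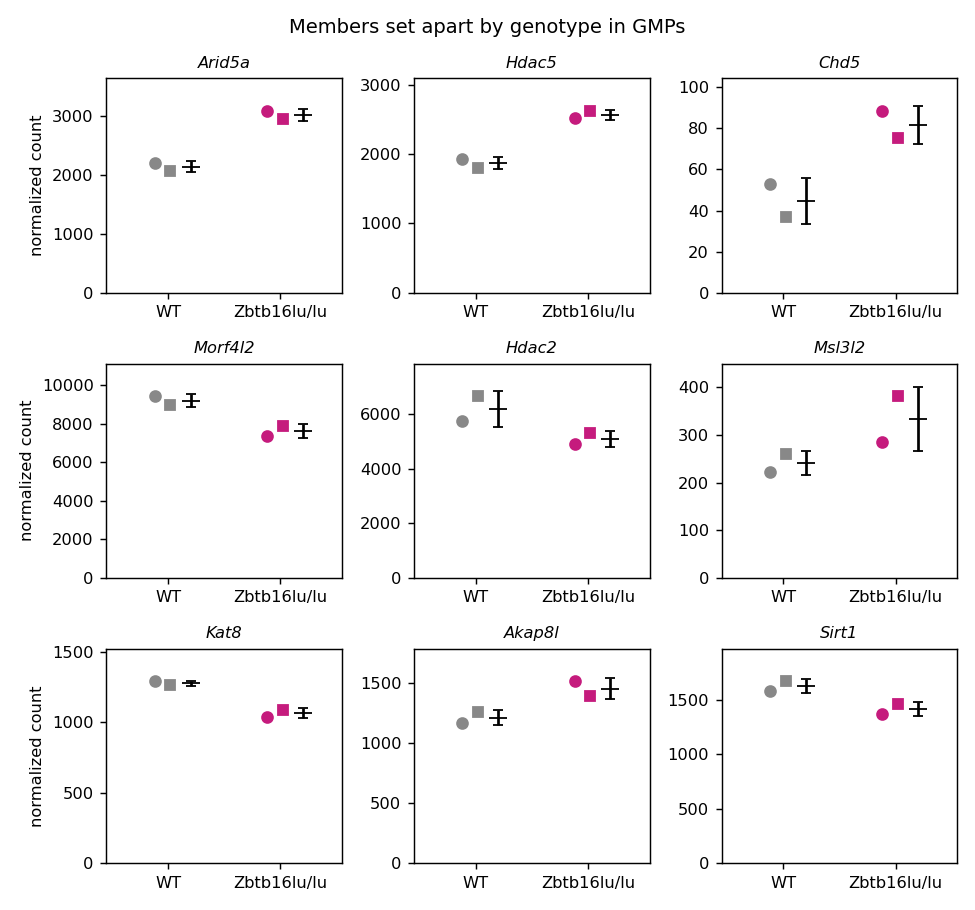
Normalized counts (y axis, from 0) of the 9 members with an unadjusted p under 0.05, or without overlap and with a log2 fold change of at least 0.2 in either direction, in order of p. Circles are replicate 1 and squares replicate 2, and bars give the mean and SD of the 2 libraries. Arid5a, Hdac5, Chd5, Msl3l2 and Akap8l lie higher in Zbtb16lu/lu, and Morf4l2, Hdac2, Kat8 and Sirt1 lower.

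The calls depended on which libraries were used. Without WT replicate 1, 6 members were called at an adjusted p under 0.08 (Arid5a, Hdac5, Hdac2, Sirt6, Crebbp and Chd5), and without WT replicate 2, 4 were called (Arid5a, Hdac5, Morf4l2 and Msl3l2). In these fits all the spread comes from the Zbtb16lu/lu pair, which lay closer together, and 4662 and 2749 of all genes were called. Without Zbtb16lu/lu replicate 1 or 2, 0 members were called, and the members under an unadjusted 0.05 were Hdac5 alone and Arid5a alone.

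In 416b cells 5 members were past a 1.2-fold ratio after gain of PLZF. Of the 44 members that averaged 10 or more normalized counts over the libraries, 2 were past 1.2-fold higher in PLZF-Flag (Sirt5 and Akap8l), beside 6.13% of all genes, and 3 past 1.2-fold lower (Kat2b, Chd5 and Arid5a), beside 9.22%, shares of 4.55% and 6.82%. With 1 library per condition there is no test; the 95% exact binomial (Clopper-Pearson) intervals below come from the reads behind the 2 values and cover counting error only. The log2 ratios ran from -0.36 (Chd5) to 0.37 (Sirt5), 24 of 44 lay within 0.1 of 0, and the median was 0.04 beside 0.00 over 11836 genes. For 42 of 44 members the interval excluded a 1.5-fold ratio in either direction.

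Kat2b was the acetyltransferase with the largest ratio. Empty vector had 1098 normalized counts of it (1815 reads) and PLZF-Flag 883 (534 reads), so the log2 ratio was -0.31 (interval -0.46 to -0.18). Its relative Kat2a, the most abundant acetyltransferase in this line, had 5364 in Empty vector and 5666 in PLZF-Flag (0.08, interval 0.02 to 0.14), so Kat2a led Kat2b by 6.83 times in Empty vector and by 8.97 times in PLZF-Flag. Sirt5, a mitochondrial sirtuin that removes succinyl and malonyl groups more readily than acetyl groups, had 239 (395 reads) and 309 (187 reads) in the same order, which gives 0.37 (interval 0.11 to 0.62). Akap8l had 490 and 590 (0.27, interval 0.08 to 0.45) and Arid5a had 413 and 342 (-0.27, interval -0.50 to -0.04), just past the line at 0.26 on either side. Chd5 rested on 53 and 15 reads, and its interval of -1.31 to 0.48 held 0. Hdac11 was not listed, and Msl3l2 had 1 read in each library, so neither has a ratio.

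Smaller ratios could be told from 0 by counting error in the deeper genes. The interval lay above 0 for 14 members, beside 16.1% of genes, and below 0 for 6, beside 16%, which are shares of 31.8% and 13.6%. The members were deeper than the average gene, with a median of 3363 reads in Empty vector against 1920.5 over all genes, and a deeper gene has a narrower interval. Among the 6386 genes that averaged 1000 or more normalized counts, a limit chosen after seeing the data, the interval was above 0 for 12 of 29 members beside 22.2% of genes and below 0 for 3 beside 19.4%. The corepressor subunits gave 5 of the 14 (Ncor1, Mta1, Mta2, Chd4 and Brms1), with Mta2 highest at 0.17 (interval 0.13 to 0.21; 11260 and 12642 normalized counts). The deacetylases gave 4 (Hdac1, Hdac2, Hdac5 and Hdac7), with Hdac1 at 0.15 (interval 0.09 to 0.21; 4540 and 5027). The 6 below 0 were Kat2b, Kat7, Crebbp, Sirt1, Brd2 and Arid5a, among them Sirt1 at -0.21 (interval -0.33 to -0.09; 1445 and 1249) and Crebbp at -0.19 (interval -0.38 to -0.01; 598 and 524).

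By role, 8 of 10 measured deacetylases and 8 of 10 corepressor subunits had a ratio above 0, with medians of 0.05 and 0.05, and 6 of 9 acetyltransferases had a ratio below 0, with a median of -0.06. The sirtuins had a median of 0.06, the bromodomain readers 0.05 and the complex adaptors 0.00. Over all 11836 genes the median was -0.00014, so about as many lay above 0 as below, and the SD of the ratios was 0.27. The interval included 0 for 6 of the 10 deacetylases, 5 of the 10 corepressor subunits and 5 of the 9 acetyltransferases. With no replicate, the medians of the roles could not be tested.

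**Figure D4:**
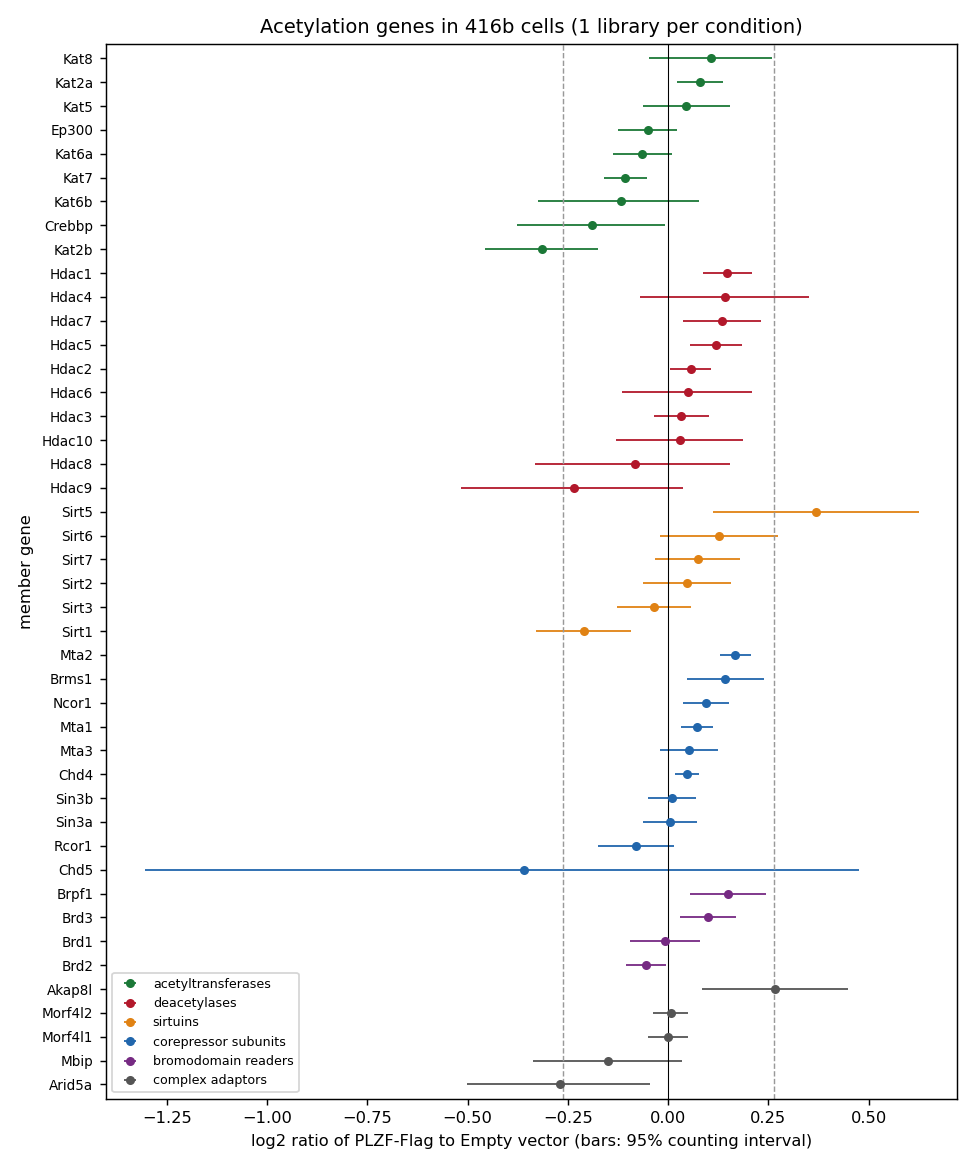
PLZF-Flag over Empty vector on the log2 scale for 44 members in 416b cells (x axis), ordered by role and ratio, with 95% exact binomial intervals that cover counting error only. Dashed lines mark 1.2-fold in either direction; Sirt5 and Akap8l lie past the right line and Kat2b, Chd5 and Arid5a past the left line, with the widest interval for Chd5.

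Opposite signs after gain and loss of PLZF were about as frequent among the members as among all genes. The sign of the 416b ratio was opposite to that of the GMP fold change in 22 of 44 members (50%), beside 47.6% of the 11241 genes measured in both. Of these, 12 were higher with gain and lower with loss and 10 the reverse, while 15 were higher in both and 7 lower in both. Across the 44 members Pearson's r was -0.18 and Spearman's rho 0.02, and without Chd5 they were 0.07 and 0.09; across all genes they were -0.04 and 0.03. These correlations are across genes, which are not independent replicates, and describe the tables only. By role, the signs were opposite in 5 of 9 acetyltransferases, 5 of 10 deacetylases, 1 of 6 sirtuins, 5 of 10 corepressor subunits, 3 of 4 bromodomain readers and 3 of 5 complex adaptors.

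Of the members with the lowest p in GMPs, Arid5a was higher with loss (0.49) and lower with gain (-0.27, interval below 0), and Chd5 had the same signs (0.88 and -0.36) on few reads. Hdac5 was higher in both (0.46 and 0.12, interval above 0), as were Akap8l (0.26 and 0.27) and Sirt5 (0.19 and 0.37). Sirt1 was lower in both (-0.20 and -0.21). Hdac2 and Kat8 were lower with loss (-0.28 and -0.27) and had ratios of 0.06 and 0.11 with gain, the interval of Kat8 including 0. Morf4l2 was lower with loss (-0.27) and had a ratio of 0.01 with gain (interval -0.04 to 0.05).

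**Figure D5:**
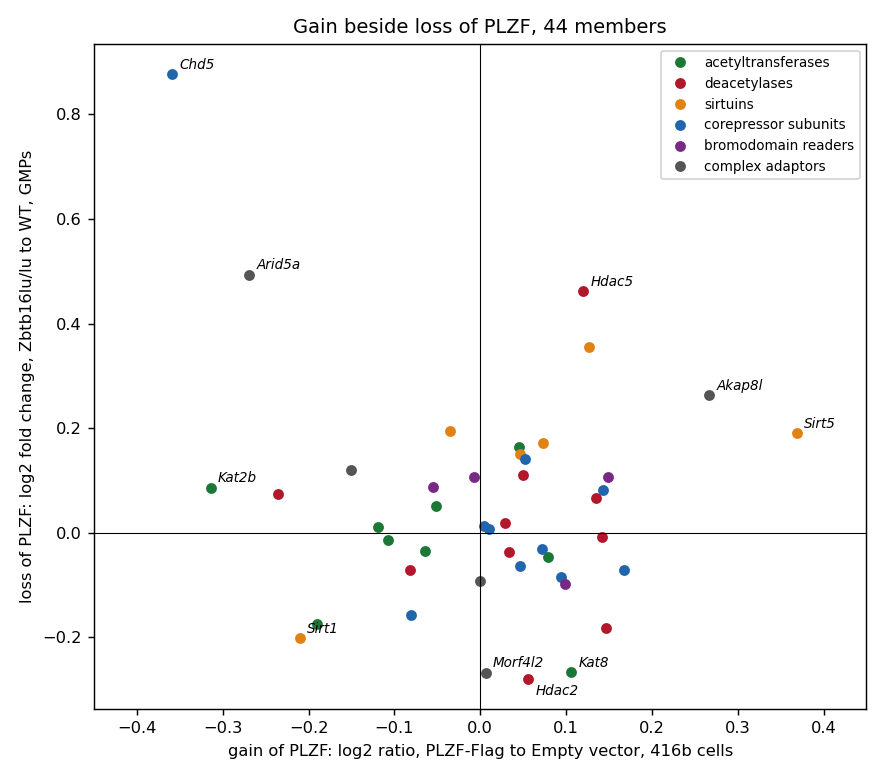
PLZF-Flag over Empty vector on the log2 scale in 416b cells (x axis, gain of PLZF) against the log2 fold change of Zbtb16lu/lu to WT in GMPs (y axis, loss of PLZF) for 44 members, coloured by role. The points fall in all 4 quadrants, with Chd5 and Arid5a at the upper left, Hdac5, Akap8l and Sirt5 at the upper right, and most points near the origin.

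Of the genes of the same machinery outside the members, 0 were called in GMPs, 0 were higher at an unadjusted p under 0.05 and 6 were lower, beside 5.5% and 4.37% of all genes. The 4 lists had negative medians of the log2 fold change, between -0.13 and -0.01, where the members had 0.03. Of 41 further acetyltransferase complex genes tested, 2 were lower at an unadjusted p under 0.05, the HBO1 complex scaffold Jade3 (log2 fold change -0.47 ± 0.13 SE) and Dr1 of the ATAC complex (-0.37 ± 0.13 SE). Of 25 further acetyl-lysine readers, 2 were lower at that level, Brd7 of the PBAF complex (-0.28 ± 0.11 SE) and Baz1a (-0.31 ± 0.13 SE). Of 28 further corepressor genes, 0 passed that level, and the lowest p were those of Mier1 (-0.27 ± 0.14 SE) and Arid4a (-0.22 ± 0.12 SE). Of 13 genes that supply acetyl-CoA, ketone bodies, monocarboxylates or NAD, 2 were lower at that level, Dlat, the acetyltransferase subunit of pyruvate dehydrogenase (-0.48 ± 0.12 SE), and the lactate transporter Slc16a1 (-0.34 ± 0.11 SE). Both Zbtb16lu/lu libraries lay below both WT libraries in 15 of the 41 acetyltransferase complex genes, 7 of the 28 corepressor genes, 11 of the 25 readers and 6 of the 13 supply genes, beside 22.1% of all genes, and above both in 6, 2, 0 and 1, beside 21.7%. The adjusted p of the 8 genes named lay between 0.370 and 0.563 by limma. In 416b cells, 41 acetyltransferase complex genes, 28 corepressor genes, 25 readers and 11 supply genes were measured. Of these, 0 were past 1.2-fold higher, beside 6.13% of all genes, and 2 past 1.2-fold lower, beside 9.22%.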

How the data were processed

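RNA-seq reads were mapped by the authors to mm10 with subread-align, counted per gene with featureCounts (1.5.0 in the submitters' processing notes) and divided by DESeq2 size factors, so the deposited values are a signal of normalized counts. Whether counting used strand is not given in the sources used here. The 416b table lists genes with reads in both libraries. The tables also hold log2 values, fold changes and p-values of the authors, which were not used. Each genotype of GMPs is 1 GEO sample with 2 columns of different dates, taken as separate libraries; the methods state 3 RNA extractions, and 2 columns are in the table.

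The values in all 4 GMP columns were 100% whole multiples of the value of 1 read; in 416b cells 84.3% (Empty vector) and 85.5% (PLZF-Flag) were, within 0.1 read, and the others were rounded. GMPs were tested with limma 3.58.1 (intensity trend) on log2(normalized count + 1), for genes with at least 10 in at least 2 libraries, with Benjamini-Hochberg adjustment over all of them and a threshold of 0.08. edgeR 4.0.16 and DESeq2 1.42.0 were run on the recovered reads and called 0 and 220 genes. Fold changes on this scale understate the change of low genes. For 416b cells the log2 ratio with a pseudocount of 1 was used, for genes with a mean of at least 10. Exon lengths, GC content and coordinates are from GENCODE M21 (GRCm38/mm10), which covered 20024 of 20531 and 11617 of 11836 genes. Software was R 4.3.3, Python 3.11.15, numpy 2.4.6, scipy 1.17.1, pandas 2.3.3 and matplotlib 3.10.9.

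The members and all lists were chosen with earlier results of these data known. The study names as changed, for example, Arid5a in GMPs and Hdac1, Kat2b and Chd5 in 416b cells. Shares of the members set beside all genes are therefore not neutral. Values per library are given for members with an unadjusted p under 0.05 in GMPs, without overlap and with a log2 fold change of at least 0.2, past 1.2-fold in 416b cells with an interval beside 0, most abundant in their role, or under 10 normalized counts, and for the 2 lowest p of each further list. Sirt7, Ncor1, Sin3a, Hdac1, Hdac3, Kat7, Ep300, Crebbp, Chd4, Morf4l1, Mta2 and Brd2 are also given as named relatives or partners. The alternatives were pseudocounts, filters, scalings, tests and left-out libraries.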

Additional observations from a re-analysis of the deposited data

How the results depend on the processing

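The count of members called in GMPs, 0, was also 0 with pseudocounts of 0.1 and 10, with no filter, with genes of a mean of at least 100, with equal library totals, with quantile normalization, with the correction for GC content and gene length, with no intensity trend, with edgeR and at an adjusted p under 0.05. It was 1 with DESeq2 (Arid5a) and 0 to 6 when each library was left out. The 4 members at an unadjusted p under 0.05 became 2 with quantile normalization and 1 to 8 when each library was left out, and the 21 without overlap (45.7%, beside 43.9% of all genes) became 26 to 40 (56.5% to 87.0%, beside 62.4% to 83.5% of all genes), since a single library overlaps a pair less often. Of all 20531 genes, 2028 had an unadjusted p under 0.05 in the main limma fit and 2062 with quantile normalization. With a WT library left out, far more of all genes fell under that level too. Member counts from fits that leave 1 library in a genotype were therefore not read as a change in the members. The members past 1.2-fold in 416b cells, 5, became 3 with a pseudocount of 10 and 4 with upper quartile scaling. The reason is that Akap8l and Arid5a lie beside that line. Opposite signs of gain and loss, 22, ranged from 16 to 27. The 9 members plotted by genotype were all without overlap. Leaving out a library or changing the pseudocount therefore could not turn the sign of their fold changes. No sign changed in the other alternatives. Arid5a ranged from 0.39 to 0.54, Hdac5 from 0.20 to 0.51, Chd5 from 0.62 to 1.13 and Morf4l2 from -0.35 to -0.19. The cause of these shifts was not tested.

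No paired analysis was possible because the labels give the GMP libraries no replicate numbers and only 1 date is shared between genotypes, which leaves no residual degrees of freedom. Where a WT or Zbtb16lu/lu library was left out, the lone library was assumed to vary like the other genotype. Chd5 rested on 53 and 15 reads in 416b cells and Msl3l2 on 1 each, and 416b cells have no replicate.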

Other observations

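The study lists the genes nearest to active enhancers that were bound by PLZF and lost H3K27ac in 416b PLZF-Flag cells, and 4 members are among them (Kat5, Kat6a, Hdac5 and Sirt1). In 416b cells 2 of the 4 had a ratio above 0 and 2 below, with a median of -0.01, and in Zbtb16lu/lu GMPs 2 had a fold change above 0 and 2 below, with a median of 0.06. The list was drawn from samples of this series, so it is not independent of the 416b comparison.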
